A study of Homo sapiens with 7 samples.

Results

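The glypicans (GPC1 to GPC6) and syndecans (SDC1 to SDC4) are the main families of membrane-bound heparan sulfate proteoglycans of human cells. All 10 of their genes were present among the 60234 genes of the deposited expression table. The 10 genes were taken as complete families, but the families were chosen by a measured value, the lower GPC6 level in the libraries given the MYH7B oligonucleotide. The values of GPC6 in this comparison are therefore a description with no test, and the tests bear on the other 9 genes only.

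RNA was measured in cardiomyocytes differentiated from WTC-11, an established human induced pluripotent stem cell line, with the same line and maturation in both groups. The cells were matured for 35 days and then held for 96 h with 2 uM of an ASO (antisense oligonucleotide), a man-made strand of nucleic acid that base-pairs with its target RNA, added without a named transfection step. The control group received a scrambled ASO (3 libraries, replicates 1 to 3) and the other group an ASO against MYH7B, a sarcomeric myosin heavy chain gene (4 libraries, replicates 1 to 4). The labels do not say whether replicates were separate differentiations, so p-values measure only the spread between these libraries. The cells are of 1 line and each group is labelled with 1 ASO, which limits the groups as a model, and untreated cells were not analysed here.

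Glypicans are globular core proteins tied to the outer cell surface by a glycolipid (GPI) anchor, whereas syndecans cross the membrane and carry a short cytoplasmic tail. Both bear heparan sulfate, a long sulfated sugar chain that binds fibroblast growth factors, Wnt and Hedgehog proteins and matrix proteins, and some syndecans and glypicans also carry chondroitin sulfate. In the heart these proteoglycans sit on the myocyte surface and in the surrounding matrix, where syndecan-4 is known as a component of cell-matrix contacts.

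The promoters of GPC6 and GPC4 are printed because these glypicans, which belong to the same subfamily, had the most negative log2 differences of the tested glypicans and because their start regions were unlike each other in base composition. Each stretch is the 250 bases before the RefSeq transcription start on GRCh38.p14, written 5' to 3' on the gene's strand, with CpG dinucleotides in capitals. The GPC6 stretch is chr13:93226557-93226806 on the plus strand and the GPC4 stretch is chrX:133415490-133415739 on the minus strand.
GPC6: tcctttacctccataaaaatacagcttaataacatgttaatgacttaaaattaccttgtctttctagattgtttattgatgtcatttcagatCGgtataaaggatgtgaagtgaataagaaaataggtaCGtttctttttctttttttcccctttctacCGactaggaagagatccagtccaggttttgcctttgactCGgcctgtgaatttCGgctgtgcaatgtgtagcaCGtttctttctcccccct
GPC4: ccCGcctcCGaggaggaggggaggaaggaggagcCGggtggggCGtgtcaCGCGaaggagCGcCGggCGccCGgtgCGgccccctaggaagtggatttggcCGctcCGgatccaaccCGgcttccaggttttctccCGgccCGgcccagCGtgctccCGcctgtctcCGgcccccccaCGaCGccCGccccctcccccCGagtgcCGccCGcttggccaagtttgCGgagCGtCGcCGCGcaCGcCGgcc
The GPC6 stretch held 6 CpG and 37.6% G and C, against 32 CpG and 76.0% in the GPC4 stretch.

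RefSeq promoter windows, 250 bases before to 50 after the start, were matched by symbol for 8 of the 10 genes in 9 entries, with none matched for GPC3 and SDC2. Over the whole window the GPC6 entry had 40.0% G and C, above only 11.2% of all 35116 RefSeq windows. The other 8 entries had 65.0% to 84.0% G and C and 23 to 46 CpG, and the medians of all windows were 58.7% and 14 CpG. The following 3 short motifs were searched on both strands, and no match of one overlapped a match of another in these entries. TATAAA, the TATA box core, was present in the GPC5 and GPC6 entries and in 11.5% of all windows. A match alone does not show a working TATA box, and the GPC6 match lies in the upstream part of the printed stretch, away from the start. GGGCGG, the GC box bound by SP factors, was present in 8 of the 9 entries, all but that of GPC6, and in 45.0% of all windows. GGAATG, the core of the element bound by TEAD factors, was in none of the 9 entries and in 14.0% of all windows.

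The 6 libraries in register had 15290 to 16207 genes at 1 TPM or more (an abundance corrected for transcript length and scaled to the same total in every library), with 27.4% to 33.6% of TPM in mitochondrially encoded genes. MYH7B ASO replicate 1 was deposited with its values out of row register and, once reordered, had 14823 such genes and a mitochondrial share of 17.2%. It was left out of the tests, and its reordered values are given separately. MYH7B itself was at 23.0, 36.5 and 25.1 TPM in scrambled ASO replicates 1 to 3 and at 9.30, 5.65 and 6.31 TPM in MYH7B ASO replicates 2 to 4, with 1.29 TPM in replicate 1. It fell by 1.85 on the log2(TPM + 1) scale (SE 0.24, limma adjusted p = 0.0109), with no overlap of the groups. All 10 cardiomyocyte markers were expressed, with TNNT2, the cardiac troponin T gene, at 933 to 1324 TPM in the 6 libraries.

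Of the 15988 genes whose mean over the 6 libraries reached 1 TPM, 265 (1.66%) were called, that is had a limma adjusted p under 0.05. The MYH7B ASO group was lower for 236 of them (1.48%) and higher for 29 (0.181%), and median-ratio and quantile rescaling gave 213 lower with 58 higher and 202 lower with 55 higher. An unadjusted limma p under 0.05 was found for 2435 genes (15.2%), and the groups did not overlap for 3394 genes (21.2%). TPM keeps no record of sequencing depth, so the depth behind each TPM value is unknown. The authors' deposited table gives a mean normalized count per gene but none per library.

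GPC6 (ENSG00000183098.11, chr13:93226842-94407401, plus strand, GENCODE 29 on GRCh38) encodes a GPI-anchored glypican known for its part in skeletal growth. Its level was 8.69, 13.05 and 15.1 TPM in the scrambled libraries and 1.15, 0.824 and 0.875 TPM in MYH7B ASO replicates 2 to 4. Every MYH7B ASO library was below every scrambled library, and the reordered replicate 1 was lowest of all at 0.737 TPM. The means were 12.3 ± 3.28 and 0.951 ± 0.178 TPM (SD, n = 3 each), so that 7.74% of the scrambled mean was left, a 12.9-fold difference. On the log2(TPM + 1) scale the difference was -2.74 (SE 0.25), the 9th lowest of the 15988 tested genes. GPC6 reached the minimum mean of 1 TPM only through the scrambled libraries, so its rank is not independent of that minimum. The log2(TPM + 1) scale compresses low values, and the GPC6 difference was -3.53 with a pseudocount of 0.1 and -1.52 with a pseudocount of 5. The authors' deposited table gives a shrunken log2 fold change of -2.89 for GPC6. In bulk RNA, fewer cells of a type that expresses a gene and less RNA per cell cannot be told apart.

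**Figure D1:**
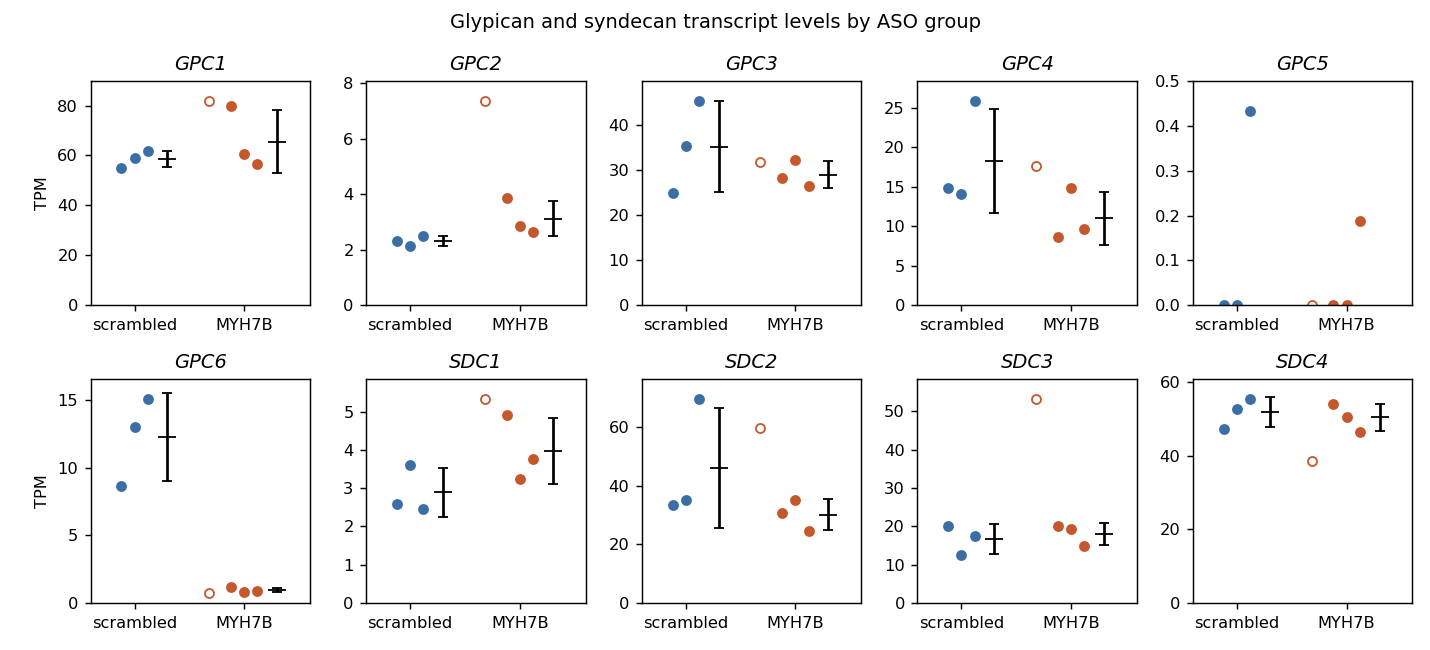
TPM of the 10 glypican and syndecan genes, 1 panel per gene with its own axis from 0, by ASO group. Filled points are libraries, open points the reordered MYH7B ASO replicate 1, and bars the mean ± SD of the 3 filled points (not drawn where a library is at 0). GPC6 is the panel in which all MYH7B ASO points, 0.737 to 1.15 TPM, lie far below the scrambled points, 8.69 to 15.1 TPM.

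Among the other 9 genes, 8 reached this minimum and were tested, and limma called none of them in either direction, beside 1.66% of all tested genes. GPC4 alone had an unadjusted limma p under 0.05, beside 15.2% of all tested genes. In the authors' deposited table the same 8 genes had adjusted p-values from 0.0981 to 0.942, so none was below 0.05, beside 8.71% of the 15527 genes with an adjusted p there. Which libraries entered that table, and whether MYH7B ASO replicate 1 was among them, is not stated. It comes from the same series of libraries, so here and below it is no independent test. A p above the threshold does not show equal levels, and the 95% intervals below give the differences these libraries allow. The plot of TPM by ASO group shows all 10 genes.

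GPC4 (ENSG00000076716.9, chrX:133300103-133415490, minus strand) belongs to the subfamily of GPC6. It stood at 14.8, 14.1 and 25.8 TPM with the scrambled ASO and at 8.61, 14.8 and 9.61 TPM with the MYH7B ASO. The groups overlapped, because MYH7B ASO replicate 3 reached the level of scrambled replicates 1 and 2, and scrambled replicate 3 was the highest library. The log2 difference was -0.66 (SE 0.28, 95% interval -1.30 to -0.03, limma adjusted p = 0.307), and -0.40 without scrambled replicate 3. The reordered replicate 1 had 17.6 TPM, inside the scrambled range.

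GPC3 (ENSG00000147257.15, chrX:133535745-133985895, minus strand), the gene of Simpson-Golabi-Behmel overgrowth syndrome and a regulator of Hedgehog signalling, lies beside GPC4. Its level was 24.9, 35.2 and 45.1 TPM with the scrambled ASO and 28.2, 32.2 and 26.4 TPM with the MYH7B ASO. All 3 MYH7B ASO values lay inside the scrambled range, and the log2 difference was -0.24 (SE 0.22, interval -0.73 to 0.26, limma adjusted p = 0.652). It was -0.039 without scrambled replicate 3 and -0.45 without scrambled replicate 1.

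GPC1 (ENSG00000063660.9, chr2:240435671-240468078, plus strand), a glypican widely expressed in muscle and nerve, had the highest mean of the 10 in both groups, although its range overlapped that of SDC4 in the scrambled group and SDC2 exceeded it in scrambled replicate 3. It was at 54.9, 59.1 and 61.7 TPM in the scrambled libraries and at 79.8, 60.5 and 56.4 TPM in the MYH7B ASO libraries. The groups overlapped and MYH7B ASO replicate 2 stood highest, with a log2 difference of 0.15 (SE 0.16, interval -0.22 to 0.52, limma adjusted p = 0.715) that became -0.0020 without that library.

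GPC2 (ENSG00000213420.8, chr7:100169606-100177372, minus strand), a glypican of developing neurons, was low throughout. Its level was 2.32, 2.13 and 2.50 TPM with the scrambled ASO and 3.85, 2.87 and 2.66 TPM with the MYH7B ASO. Every MYH7B ASO library was above every scrambled library, a lack of overlap shared with 21.2% of tested genes in either direction, and the reordered replicate 1 was higher still at 7.35 TPM. The log2 difference of 0.31 (SE 0.25, interval -0.26 to 0.87) was not called (limma adjusted p = 0.602).

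GPC5 (ENSG00000179399.15, chr13:91398607-92873682, plus strand), the neighbour of GPC6 and a relative of GPC3, was listed at 0 in scrambled replicates 1 and 2 and at 0.434 TPM in replicate 3. In the MYH7B ASO group it was listed at 0 in replicates 1, 2 and 3 and at 0.188 TPM in replicate 4. It was under the minimum for testing, and no fold is given. The authors' deposited table gives GPC5 a mean normalized count of 3.44, against 749 for GPC6.

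SDC4 (ENSG00000124145.6, chr20:45325288-45348424, minus strand), the syndecan of focal adhesions, had the highest group means of the syndecans, although SDC2 exceeded it in scrambled replicate 3. It was at 47.4, 52.7 and 55.5 TPM with the scrambled ASO and at 54.1, 50.7 and 46.6 TPM with the MYH7B ASO. The ranges nearly coincided, and the log2 difference was -0.04 (SE 0.14, interval -0.35 to 0.28, limma adjusted p = 0.926), or 0.029 after median-ratio rescaling. This was the narrowest interval of the 8 tested genes.

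SDC2 (ENSG00000169439.12, chr8:96493351-96611780, plus strand), a syndecan typical of mesenchymal cells, was at 33.2, 35.0 and 69.5 TPM with the scrambled ASO and at 30.8, 35.1 and 24.4 TPM with the MYH7B ASO. Scrambled replicate 3 was about as high as the other scrambled libraries together, and the remaining 5 libraries overlapped. The log2 difference was -0.53 (SE 0.28, interval -1.17 to 0.12, limma adjusted p = 0.432) and -0.19 without that library. The reordered MYH7B ASO replicate 1 was at 59.5 TPM.

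SDC3 (ENSG00000162512.16, chr1:30869467-30908761, minus strand), the syndecan of neural and muscle tissue, was at 20.0, 12.4 and 17.4 TPM with the scrambled ASO and at 20.0, 19.2 and 14.8 TPM with the MYH7B ASO. The groups overlapped, with a log2 difference of 0.12 (SE 0.21, interval -0.36 to 0.61, limma adjusted p = 0.831) that was -0.062 without scrambled replicate 2. The reordered MYH7B ASO replicate 1 lay far above both groups at 53.2 TPM.

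SDC1 (ENSG00000115884.11, chr2:20200797-20225433, minus strand), the syndecan of epithelia and plasma cells, was low at 2.59, 3.61 and 2.46 TPM with the scrambled ASO and 4.91, 3.25 and 3.76 TPM with the MYH7B ASO. The groups overlapped in 1 library each way, and the log2 difference was 0.35 (SE 0.25, interval -0.21 to 0.92, limma adjusted p = 0.556).

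Per length, the order of mean levels in the scrambled group was GPC1, SDC4, SDC2, GPC3, GPC4, SDC3, GPC6, SDC1, GPC2 and GPC5. Neighbours in that order had overlapping library ranges except GPC6 against SDC1 and GPC2 against GPC5. In the MYH7B ASO group GPC6 stood between GPC2 and GPC5, below SDC1 and GPC2, and its range met neither neighbour. SDC3 and GPC4 stood in the opposite order there, with overlapping ranges in both groups. The ranges of SDC2 and GPC3 and of SDC1 and GPC2 also overlapped in the MYH7B ASO group.

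GPC6 made up 8.22%, 10.6% and 10.02% of the summed glypican TPM in the scrambled libraries and 0.949%, 0.741% and 0.909% in MYH7B ASO replicates 2 to 4. The share of GPC1 was 46.9% ± 5.58 in the scrambled group and 59.6% ± 5.66 in the MYH7B ASO group (SD, n = 3 each), with no overlap of the libraries. These shares add to a fixed total, so they are not independent of each other. That total includes GPC6, which was picked for its fall. The lack of overlap in the GPC1 share is therefore no separate result, and the TPM of GPC1 itself overlapped between the groups. The other shares did not all rise as that of GPC6 fell. The mean share was 27.3% and 26.5% for GPC3, 14.2% and 10.1% for GPC4, and 1.86% and 2.84% for GPC2 in the scrambled and MYH7B ASO groups. Without GPC6 the glypican sum was 97.0, 111 and 136 TPM with the scrambled ASO and 120, 110 and 95.3 TPM with the MYH7B ASO, and the groups overlapped. The syndecan sum was 103, 104 and 145 TPM against 110, 108 and 89.6 TPM. Glypicans supplied 52.0% ± 2.08 and 51.7% ± 0.929 of the TPM of all 10 genes (SD, n = 3 each).

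**Figure D2:**
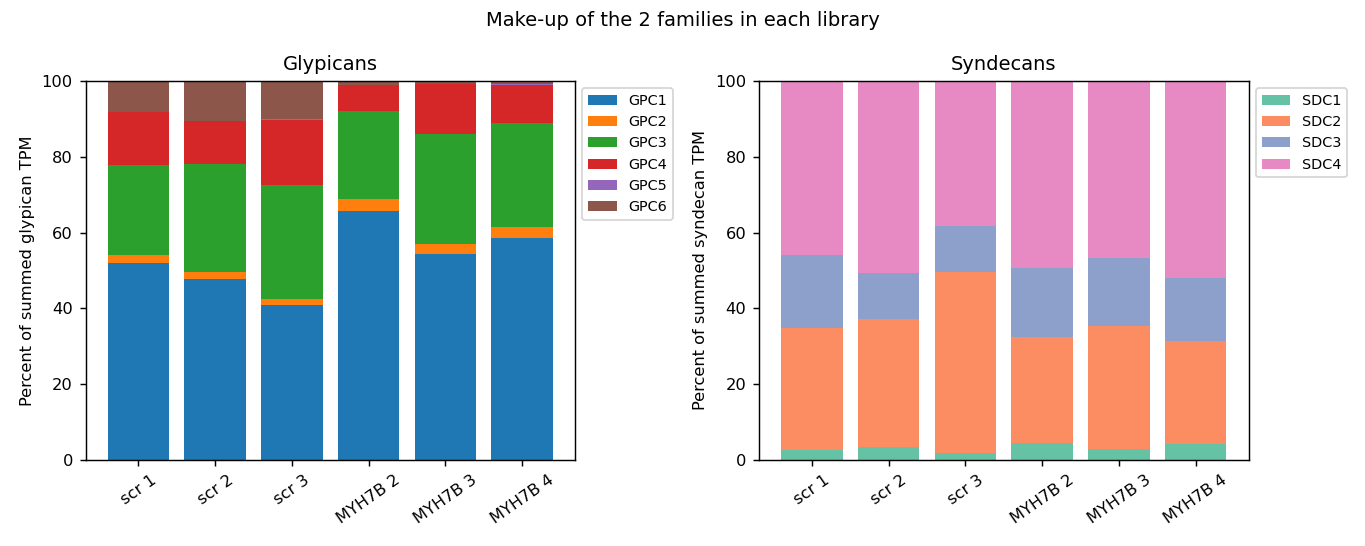
Share of each gene in the summed glypican TPM (left) and summed syndecan TPM (right), in percent, 1 stacked bar per library of the 6 in register. The GPC6 segment takes 8.22% to 10.6% of the glypican bars in the scrambled (scr) libraries and 0.741% to 0.949% in the MYH7B ASO libraries.

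The 10 genes differ widely in length, a property that the choice of genes did not use. GPC6 spans 1181 kb with 0.548% of the span in exons and a longest intron of 318 kb, for a coding sequence of 555 codons. GPC5 spans 1475 kb with a longest intron of 721 kb, GPC3 spans 450 kb, SDC2 118 kb and GPC4 115 kb. The remaining 5 genes span 7.77 kb (GPC2) to 39.3 kb (SDC3). Of the 9 tested genes, those with negative log2 differences were GPC6, GPC3, GPC4 and SDC2, the 4 longest, and SDC4 at -0.04. GPC6 was picked for its fall, and the others overlapped between the groups and were not called. These signs are therefore a description and not evidence of an order by span.

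Within the 9 the values did not follow span gene by gene, since GPC3, at 450 kb, was nearer 0 than SDC2 and GPC4. Over all 15852 tested genes with a span, longer classes held more genes called lower. The share called lower was 0.531% of 10553 genes under 50 kb, 1.68% of 4177 genes of 50 to 200 kb, 8.74% of 915 genes of 200 to 500 kb and 14.0% of 207 genes over 500 kb. The median log2 differences in these classes were 0.03, -0.17, -0.39 and -0.66. GPC6, picked for its fall, had the 2nd lowest log2 difference of the 37 tested genes of 1000 kb or more, a description only. Of these 37 genes 5 were called lower. That count includes GPC6 itself, as do the 14.0% of genes over 500 kb and the counts over all tested genes. Whether span has a part in the GPC6 difference was not tested.

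**Figure D3:**
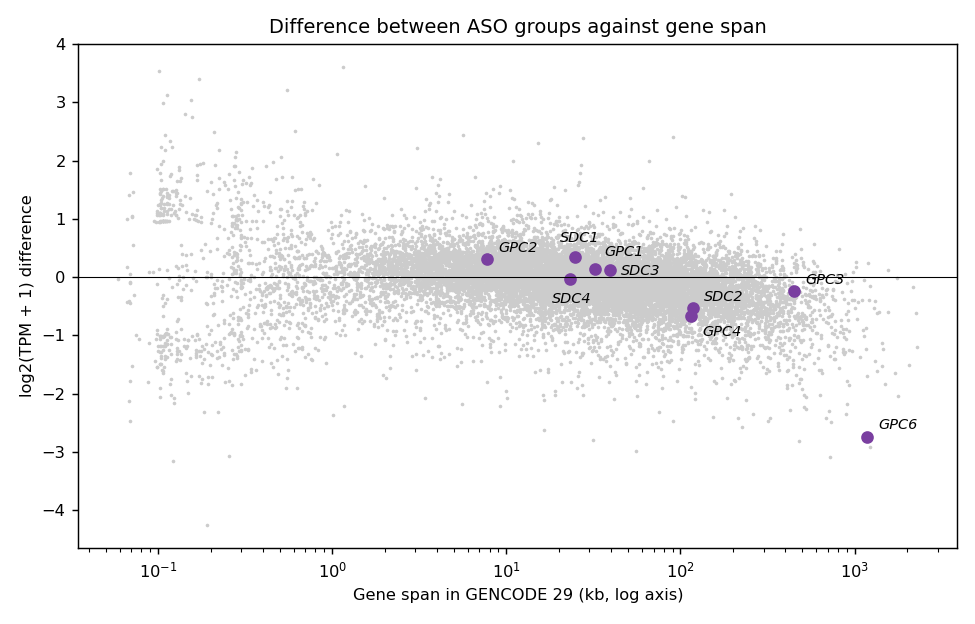
Log2(TPM + 1) difference, MYH7B ASO minus scrambled ASO, against gene span in kb on a log axis, for the tested genes with a span (grey) and the 9 tested glypican and syndecan genes (purple, named). GPC6 lies at -2.74 at the long end, and the genes under 40 kb lie between -0.04 and 0.35.

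On chromosome 13 the nearest tested genes outside GPC6 lay beyond its 3' end. TGDS, a sugar nucleotide dehydratase gene 167 kb away, was at 2.32, 5.44 and 4.77 TPM with the scrambled ASO and 7.87, 6.03 and 4.72 TPM with the MYH7B ASO (log2 difference 0.51, limma adjusted p = 0.475). GPR180, a membrane protein gene 194 kb away, was at 2.93, 2.80 and 3.59 TPM against 2.61, 2.19 and 2.01 TPM (-0.33, limma adjusted p = 0.582). Neither neighbour was called. AL354811.1, an antisense transcript across the GPC6 start, was at 0, 0.390 and 1.29 TPM with the scrambled ASO and 0.490, 0.623 and 0.528 TPM with the MYH7B ASO. GPC6-AS1 and GPC6-AS2 were listed at 0 in all 6 libraries. Whether reads were counted by strand is not given in the sources used here, so reads of overlapping genes on opposite strands may not be separated.

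By Pearson's r of log2(TPM + 1) over the 6 libraries, the genes most like GPC6 were MMP16 (r = 0.998), a membrane-bound matrix metalloproteinase, ACBD3 (0.997), a Golgi protein, DDAH1 (0.997), which degrades methylated arginines, ADCY9 (0.996), an adenylyl cyclase, and SLMAP (0.995), a sarcolemmal membrane protein. MMP16 was at 3.51, 4.57 and 4.52 TPM with the scrambled ASO and 0.892, 0.678 and 0.795 TPM with the MYH7B ASO. Like GPC6, MMP16 reached the minimum mean of 1 TPM only through the scrambled libraries. DDAH1 was at 12.04, 16.9 and 19.4 TPM against 2.93, 2.27 and 1.81 TPM. Both, like GPC6, were lowest in replicate 1 among the scrambled libraries. With 6 libraries in separate groups any gene that differs between them scores high, and 288 tested genes had an r of at least 0.95.

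Heparan sulfate is built on the core proteins by a tetrasaccharide linker, the EXT polymerases and a series of sulfotransferases, and is edited outside the cell. Of 36 genes listed for these steps, 24 were tested and 2 fell, NDST1 and SULF1, beside 1.48% of all tested genes called lower, and none was called higher. At an unadjusted limma p under 0.05, 6 were lower and 2 higher, beside 15.2% of all tested genes in either direction. The median log2 difference over the 24 was -0.17, against -0.04 over all tested genes. In the authors' deposited table, 7 of the 30 listed genes with an adjusted p were lower at under 0.05 (XYLT1, EXT1, NDST1, HS6ST2, HS3ST4, SULF1 and HPSE2) and 1 was higher (B3GALT6), beside 8.71% of all its genes with an adjusted p.

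None of the 6 tested linker genes was called by limma. B3GALT6, the galactosyltransferase that adds the third linker sugar, was at 12.1, 13.4 and 11.2 TPM with the scrambled ASO and 19.4, 16.6 and 16.3 TPM with the MYH7B ASO (log2 difference 0.48, SE 0.16, limma adjusted p = 0.205). Its groups did not overlap. XYLT1, a xylosyltransferase that starts the chain, was under the minimum for testing, at 2.46, 0.955 and 1.20 TPM against 0.291, 0.264 and 0.448 TPM.

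EXT1 and EXT2 form the polymerase that extends the chain. EXT1 was at 36.1, 27.1 and 41.0 TPM with the scrambled ASO and 13.2, 20.9 and 16.6 TPM with the MYH7B ASO, without overlap. Its log2 difference of -1.0 (SE 0.22) missed the threshold (limma adjusted p = 0.0708). Of 19 alternatives only a minimum mean of 5 TPM passed it (0.0380). In the others the limma adjusted p reached 0.748, with a replicate block by description number, where 0 genes were called. EXT2 was at 15.4, 26.3 and 27.7 TPM against 14.2, 28.3 and 15.0 TPM, with overlap (-0.29, SE 0.31, limma adjusted p = 0.705). All 5 polymerase genes had negative log2 differences and none was called.

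NDST1, which removes acetyl groups from the chain and sulfates the freed nitrogens, was at 24.5, 24.1 and 19.4 TPM with the scrambled ASO and 10.7, 11.7 and 8.89 TPM with the MYH7B ASO. The groups were apart in all 6 libraries, and NDST1 fell by 1.05 on the log2 scale (SE 0.17, limma adjusted p = 0.0285). The call was kept without scrambled replicate 3 (0.0458) and lost without scrambled replicates 1 (0.0918) or 2 (0.0827) or MYH7B ASO replicates 2 (0.0939), 3 (0.0674) or 4 (0.124). It was also lost with the reordered MYH7B ASO replicate 1 (18.5 TPM) added, at a limma adjusted p of 0.167. It was the only call among 10 tested modification genes. HS6ST2, a 6-O-sulfotransferase that lies near GPC4 and GPC3 at chrX:132626016-132961395, was at 7.07, 6.84 and 10.2 TPM against 3.05, 3.94 and 4.51 TPM (log2 difference -0.89, SE 0.23, limma adjusted p = 0.107).

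SULF1, a secreted sulfatase that takes 6-O-sulfates off finished chains, was at 110, 95.8 and 198 TPM with the scrambled ASO and 25.9, 51.5 and 32.4 TPM with the MYH7B ASO. It fell by 1.83 on the log2 scale (SE 0.32, limma adjusted p = 0.0323) with no overlap. The call was lost without scrambled replicates 1 (0.0817) or 3 (0.0637) or MYH7B ASO replicates 2 (0.111) or 4 (0.147), and with the reordered MYH7B ASO replicate 1 added (0.212), whose 107 TPM lay inside the scrambled range. SULF2, its close relative, was at 77.4, 59.9 and 92.9 TPM against 43.7, 79.6 and 60.3 TPM, with overlap (-0.34, SE 0.24, limma adjusted p = 0.564).

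**Figure D4:**
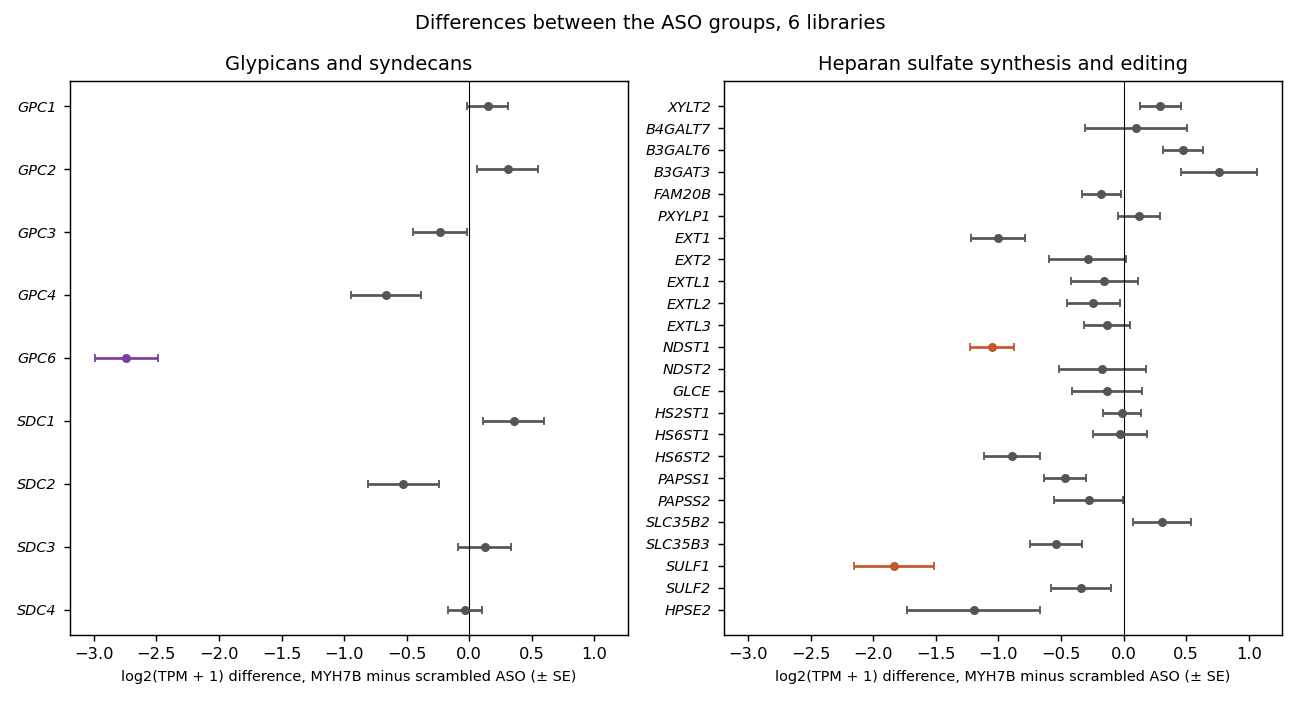
Log2(TPM + 1) differences, MYH7B ASO minus scrambled ASO, over 6 libraries, with bars of 1 SE, for the 9 tested glypican and syndecan genes (left) and the 24 tested genes of heparan sulfate synthesis and editing (right). Orange marks limma adjusted p under 0.05 (NDST1 at -1.05 and SULF1 at -1.83), purple marks GPC6, which is shown with no test, and grey the genes not called.

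A further 6 lists held other heparan sulfate proteoglycans, chondroitin sulfate enzymes, proteases and lipases that cut the core proteins or anchors, cytoplasmic partners of syndecans, Hedgehog and Wnt components and heparin-binding growth factors. Of their 71 genes 60 were tested, 2 fell, CHST11 and CASK, beside 1.48% of all tested genes, and none was called higher. At an unadjusted limma p under 0.05, 7 were lower and 3 higher, beside 15.2% of all tested genes. In the authors' deposited table, 7 were lower and 3 higher of 62 with an adjusted p, beside 8.71% of all its genes with one.

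CASK, a scaffold kinase that binds the syndecan tail, was at 5.20, 5.21 and 5.83 TPM with the scrambled ASO and 1.28, 1.33 and 1.68 TPM with the MYH7B ASO, far apart. It fell by 1.40 on the log2 scale (SE 0.23, limma adjusted p = 0.0251). The call was lost when any 1 of the 6 libraries was left out (0.0721 to 0.0923) and kept with the reordered MYH7B ASO replicate 1, at 2.11 TPM, added (0.0385). PRKCA, a protein kinase C that syndecan-4 activates, was at 3.19, 2.07 and 2.07 TPM against 0.672, 0.543 and 0.613 TPM (-1.08, SE 0.33, limma adjusted p = 0.168). The other tested partners included SDCBP (syntenin), a PDZ protein of the syndecan tail, at 77.3, 59.2 and 79.4 TPM against 108, 83.9 and 68.8 TPM, with overlap.

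CHST11, which puts 4-O-sulfates on chondroitin, was at 5.38, 7.99 and 6.55 TPM with the scrambled ASO and 2.48, 2.32 and 1.95 TPM with the MYH7B ASO, without overlap. It fell by 1.22 on the log2 scale (SE 0.22, limma adjusted p = 0.0387). The call was lost when any 1 of the 6 libraries was left out (0.0605 to 0.159) and with the reordered replicate 1 (4.70 TPM) added (0.146). None of the other 13 tested chondroitin sulfate genes was called.

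**Figure D5:**
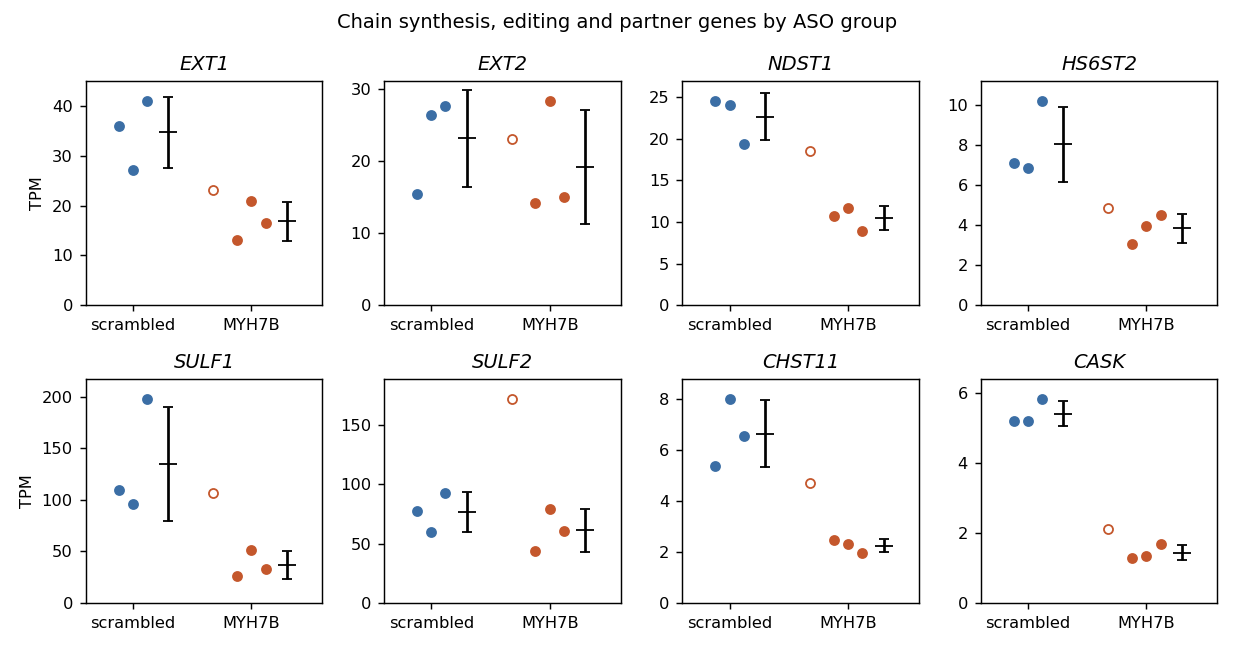
TPM of 8 genes of chain synthesis, editing and syndecan binding by ASO group, 1 panel per gene with its own axis from 0. Filled points are libraries, open points the reordered MYH7B ASO replicate 1, and bars the mean ± SD of the 3 filled points. EXT1, NDST1, HS6ST2, SULF1, CHST11 and CASK have no overlap of the filled points, as have 21.2% of all tested genes, and EXT2 and SULF2 overlap. EXT1 and HS6ST2 were not called. The open point of SULF1, 107 TPM, lies within the scrambled range.

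The secreted proteoglycans perlecan (HSPG2), agrin (AGRN) and collagen XVIII (COL18A1) were more abundant than any glypican by group mean. HSPG2 was at 99.8, 135 and 154 TPM with the scrambled ASO and 129, 107 and 84.9 TPM with the MYH7B ASO, and AGRN at 70.0, 73.1 and 123 TPM against 76.6, 108 and 72.7 TPM. Both overlapped between the groups, and none of the 6 genes of this list was called. Among ligands, none of the 9 growth factor genes was called, and SHH and WNT3A were listed at 0 in all 6 libraries. PTCH1, the Hedgehog receptor and a target of the pathway, was at 7.91, 7.03 and 3.42 TPM against 2.12, 3.35 and 2.96 TPM (log2 difference -0.85, SE 0.31, limma adjusted p = 0.236). WNT5A, the ligand of noncanonical Wnt signalling, was at 24.6, 31.8 and 28.1 TPM against 42.1, 38.3 and 37.3 TPM (0.47, SE 0.15, limma adjusted p = 0.193), without overlap and not called.

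Over the 10 pathway lists together, 84 genes were tested. The 15 that span 200 kb or more all had negative log2 differences, with a median of -0.69, and CHST11 and CASK were among them. Also among them, HPSE2 (means of 2.10 against 0.178 TPM) and PRKCA (2.44 against 0.610 TPM) reached the minimum mean only through the scrambled libraries. Their negative signs are therefore not independent of that minimum. Of the 69 shorter genes 43 had negative differences, with a median of -0.07, and NDST1 and SULF1 were called. Over all tested genes, 82.7% of the 1122 genes of 200 kb or more and 52.7% of the 14730 shorter genes had negative differences. The division of these lists at 200 kb was made after their values were seen.

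Summed levels of some markers of other cell types differed between the groups. The marker calls below stand beside 1.66% of all tested genes called in either direction. Summed over 9 fibroblast markers, the level was 2908 to 5255 TPM in the scrambled libraries and 1366 to 2103 TPM in MYH7B ASO replicates 2 to 4, with COL1A2 (-1.38, limma adjusted p = 0.0343) and LUM (-2.22, limma adjusted p = 0.0489) called lower. The collagen genes made up most of that sum, and the members did not all point the same way. At an unadjusted limma p under 0.05, 5 of the 9 were lower and 2 higher, beside 15.2% of all tested genes in either direction. The 2 higher were PDGFRA (0.60, limma adjusted p = 0.152) and TCF21 (0.71, limma adjusted p = 0.168). Both had no overlap, as had 21.2% of all tested genes. The 5 smooth muscle markers summed to 955 to 1352 TPM and 554 to 737 TPM, with MYH11 called lower (-2.41, limma adjusted p = 0.00599) and CNN1 at 0.24 (limma adjusted p = 0.454). The 10 cardiomyocyte markers summed to 9751 to 10877 TPM and 8280 to 10540 TPM, with none called. At an unadjusted limma p under 0.05, 5 of the 10 were lower, beside 15.2% of all tested genes in either direction. Among these 5 were RYR2, the calcium release channel (-1.03, limma adjusted p = 0.0536, no overlap), MYH7 (-1.27, limma adjusted p = 0.148) and ACTN2 (-0.48, limma adjusted p = 0.156). Of the scrambled libraries, replicate 3 had the highest fibroblast sum and also the highest GPC3, GPC4, GPC6, SDC2 and SULF1 levels. These genes were not alone, since it was also highest for GPC1, GPC2, GPC5, SDC4, EXT1, EXT2 and SULF2. It was not highest for SDC1, SDC3 or NDST1. Its mitochondrial share was 27.4%, against 33.0% and 33.2% in scrambled replicates 1 and 2. The part of that share in these levels was not tested. In the reordered MYH7B ASO replicate 1 the fibroblast sum was 4159 TPM and GPC6 was 0.737 TPM. The part of fibroblast, smooth muscle and cardiomyocyte markers in the differences, that of GPC6 included, was not tested.

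The remaining marker lists had lower sums. Their calls also stand beside 1.66% of all tested genes called, and a lack of overlap beside 21.2%. Endothelial markers summed to 17.8 to 22.2 TPM and 12.1 to 18.2 TPM, with VWF and TIE1 under 1 TPM in every library of the 6. Only KDR and TEK were tested, and neither was called, with TEK at -1.08 (limma adjusted p = 0.111, no overlap). Epicardial markers summed to 327 to 400 TPM and 251 to 389 TPM, with 0 of 6 called. Hepatic and endoderm markers summed to 4.03 to 6.50 TPM and 10.4 to 15.6 TPM, most of it APOA1, with AFP, TTR, FOXA2 and SOX17 under 1 TPM. Only APOA1 was tested, and its difference of 1.06, without overlap, was not called (limma adjusted p = 0.0706). Pluripotency markers summed to 2.85 to 4.50 TPM and 2.89 to 4.14 TPM, with NANOG, LIN28A and SOX2 under 1 TPM and neither of the 2 tested genes called. Neural markers summed to 22.1 to 27.3 TPM and 16.2 to 26.2 TPM, with SOX1 and SOX10 under 1 TPM and STMN2, 1 of 2 tested, called lower (-1.78, limma adjusted p = 0.0341).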

How the data were processed

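Poly-A selected RNA of 7 libraries was measured. The authors deposited a table of TPM values for 60234 genes and a comparison table holding a mean normalized count (a signal over libraries), a shrunken log2 fold change with its error, a test score and a p-value with its adjustment. The submitters' processing notes name DESeq2 and GRCh38.p13, and the aligner and quantifier are not given in the sources used here. Of the sample columns of the deposited tables, 0 were left unused.

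The column of MYH7B ASO replicate 1 filled its first 58721 positions and left 1513 empty. In the deposited order its log2(TPM + 1) values correlated with the other libraries at a median r of 0.408, and at 0.955 once assigned to the sorted GENCODE 29 identifiers, beside 0.959 to 0.979 among the other 6 libraries. It was kept out of the tests and added as an alternative.

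Testing used limma 3.58.1 under R 4.3.3 for genes whose mean over 6 libraries reached 1 TPM (lmFit, eBayes with trend, log2(TPM + 1), no covariate, Benjamini-Hochberg adjustment over all tested genes, calls under 0.05). TPM is not a count, so no count test was run. The fit was tested on simulated data. Tables and plots were made with matplotlib 3.10.9, numpy 2.4.6 and pandas 2.3.3 under Python 3.11.15. Gene positions are GENCODE 29, promoters RefSeq GRCh38.p14, and protein sequences were not analysed here.

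The members and the gene lists were chosen with earlier results of these data known. Named are the 10 members, MYH7B, called genes of each list, EXT1, EXT2, NDST1 and the 5 genes most like GPC6. B3GALT6, XYLT1, HS6ST2, SULF2, PRKCA, SDCBP, HSPG2, AGRN, PTCH1, WNT5A, SHH, WNT3A, the neighbours of GPC6 and the uncalled members of the marker lists were named after their values were seen. Alternatives changed the pseudocount, minimum, scaling, variance model, libraries and replicate block.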

Additional observations from a re-analysis of the deposited data

Results flagged for a closer look

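In the MYH7B ASO group, GPC5 was listed at 0 in 3 libraries and at 0.188 TPM in replicate 4, a value far from the other 3. In the same group SDC3 was at 53.2 TPM in the reordered replicate 1 and at 14.8 to 20.0 TPM in replicates 2 to 4. Only groups of 4 libraries or more can be examined this way, which leaves the MYH7B ASO group with its reordered library. Among 20 values examined over those 4 libraries, these 2 had a library that far from the rest, and chance gives about 1 in 20. That rate does not hold for GPC5, since any value above 0 beside 3 libraries at 0 is flagged. It is also only rough for the 20 values, which include sums of others. Replicate 1 also had the lowest mitochondrial share, 17.2%, whose part in the SDC3 value was not tested.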

How the results depend on the processing

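None of the 8 tested members other than GPC6 was called by limma under any of the 19 alternatives in which it was tested (18 for GPC2 and SDC1, which miss a minimum mean of 5 TPM), and in the 6-library test GPC4 alone had an unadjusted p under 0.05. The replicate blocks among these alternatives called 0 genes of all those tested. GPC6 differed by -2.58 to -2.95 when each library was left out and by -2.78 with 7 libraries. Genes called numbered 265, against 40 with no minimum, 150 without the variance trend, 170 with 7 libraries and 53 to 149 with each library left out. The heparan sulfate count of 2 was 0 with no minimum, without the trend and with 7 libraries, and 0 to 1 with a library left out. The other pathway count of 2 was 1 with a pseudocount of 5, quantile scaling or 7 libraries, 0 with no minimum and with any library left out, and 0 with a minimum mean of 5 TPM, where CHST11 and CASK were not tested. MYH7B stood at -1.85 with no minimum (limma adjusted p = 0.0779), at -2.30 with 7 libraries (0.0525) and at -2.04 to -1.66 with a library left out (0.0618 without MYH7B ASO replicate 4). GPC1 ranged from -0.0020 to 0.24, SDC3 from -0.062 to 0.26 and SDC4 from -0.099 to 0.017 with a library left out, and SDC4 was 0.029 after median-ratio rescaling. The cause was not tested.

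No label says that equal replicate numbers share a culture. The levels of the 6 libraries in register correlated at 0.959 to 0.979. Pairing was looked at by a separate r, which is not that of the levels. By that r, same-numbered libraries stood at 0.0759 and 0.110 by title, beside -0.073 to 0.041 for the other pairs. By description they stood at -0.073 and -0.039, beside -0.069 to 0.110 for the other pairs. With a replicate block by title or by description, 0 genes were called (1718 and 1096 at an unadjusted limma p under 0.05), so 0 of the heparan sulfate and 0 of the other pathway genes. Only 2 pairs of libraries share a number under either label, and libraries without a partner add nothing to a blocked comparison. These fits therefore have little power, and their lack of calls cannot show whether pairing matters. In these blocks MYH7B was at -1.92 and -2.17 (limma adjusted p = 0.331 and 0.720), and GPC1 was at -0.047 by description. Sequencing depth is unknown for TPM, so no detection limit can be given for a member listed at 0.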
